A study of Arabidopsis thaliana with 6 samples.

Results

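The primary transcript of microRNA 164b (pri-miR164b, gene MIR164b, AT5G01747) of Arabidopsis thaliana was followed through all 6 base-call libraries of a structure-probing experiment on leaves. Its amplicon comprised 255 of the 5550 positions in the series, of which 112 were A or C out of 2656, and it was taken as every row that carries the name miR164b. It was chosen by its mismatch rates in these libraries, those of the duplex strands, loop, stem and flanks and their agreement between replicates, so these values are given as a description. The groups were chr2 mutant leaves with DMS (2 libraries), wild-type Col leaves with DMS (2), chr2 leaves with the water mock (1) and Col leaves with the mock (1). All plants were 3 weeks old, and both mutant groups carry chr2, whose allele is not given in the labels. No amplicon covers CHR2 itself, so these data do not check the genotype. The labels number the DMS libraries without naming separate plants, and p-values therefore measure the spread between these libraries, which may be technical.

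MIR164 genes encode a microRNA that represses NAC transcription factors, among them the CUP-SHAPED COTYLEDON genes that set organ boundaries. Its precursor folds back on itself, and DICER-LIKE 1, with HYL1 and SERRATE, cuts the miRNA/miRNA* duplex out of the long stem. CHR2 (BRAHMA) is an ATPase subunit of SWI/SNF, which remodels chromatin. Dimethyl sulfate (DMS) methylates A and C on the pairing face when they are not base-paired, and the reverse transcriptase then often puts in a wrong base. The mismatch rate, the percentage of base calls other than the reference, therefore rises at open A and C positions, whereas G and T serve as the control.

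The amplicon sequence is shown first because every value below refers to it. It is the deposited reference base of each position, 5′ to 3′, numbered from 1, with the miRNA strand (positions 62 to 82) and the predicted miRNA* strand (192 to 210) in capitals.
pri-miR164b: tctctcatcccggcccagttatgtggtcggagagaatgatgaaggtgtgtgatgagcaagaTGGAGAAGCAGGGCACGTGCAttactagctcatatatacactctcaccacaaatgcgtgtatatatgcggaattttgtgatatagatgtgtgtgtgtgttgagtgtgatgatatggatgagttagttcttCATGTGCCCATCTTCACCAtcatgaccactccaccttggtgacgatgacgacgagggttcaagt
In the minimum free energy fold (-96.0 kcal/mol), 16 of the 21 nt of the miRNA strand were paired. The fold leaves an A opposite an A (positions 65 and 207), an internal loop of positions 70 and 71 against position 201 and its neighbour, and the 3′ end of the miRNA (81 and 82) open. The miRNA* strand was taken as the span of the predicted partners and so lacks the overhang of a Dicer product. The long upper stem between the strands closes on a hairpin loop of 4 nt at positions 132 to 135.

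The next 3 lines mark the outcome on the duplex and on the sequence between its strands. Capitals are A and C positions whose rate was at least 1% in 2 or more of the 4 DMS libraries.
miRNA strand, 62 to 82: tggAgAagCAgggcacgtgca
miRNA* strand, 192 to 210: catgtgcccAtcttcAcca
between the strands, 83 to 191: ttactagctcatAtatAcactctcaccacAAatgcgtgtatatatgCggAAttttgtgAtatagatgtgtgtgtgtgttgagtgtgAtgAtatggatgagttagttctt

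The pri-miR164b rows held 21669887 and 13907083 base calls in the chr2 DMS libraries, 18540515 and 19543162 in the Col DMS libraries, 14751379 in the chr2 mock and 21262842 in the Col mock. Coverage per position lay between 23052 and 113325, so counting error was small beside the differences below. Intervals cover counting error only, as PCR reads are not independent molecules. The first and last 26 nt behaved as primer ends: their 23 A/C positions had a mean rate of 0.0798% and 0.0949% in chr2 DMS, 0.0938% and 0.0782% in Col DMS, 0.0843% in the chr2 mock and 0.0863% in the Col mock. None of these 23 reached 1% in any library. The highest, an A at position 17, had 0.394% and 0.393% in chr2 DMS, 0.489% and 0.329% in Col DMS, 0.366% in the chr2 mock and 0.392% in the Col mock. They were left out of what follows unless named, except in the fits across all positions of the series, which kept the primer ends. Without them, 89 A/C and 114 G/T positions remain.

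The mean A/C rate of pri-miR164b was higher with DMS than with mock, and a minority of positions carried the difference. The mean over the 89 positions was 1.31% and 1.21% in the chr2 DMS libraries and 1.13% and 0.771% in the Col DMS libraries, against 0.0711% in the chr2 mock and 0.0679% in the Col mock. All 4 DMS libraries lay above both mocks. The median position moved far less, at 0.0990% and 0.0583% in chr2 DMS and 0.131% and 0.0400% in Col DMS, against 0.0397% in the chr2 mock and 0.0393% in the Col mock. A rate of 1% or more was found at 32 and 13 of 89 A/C positions in chr2 DMS replicates 1 and 2, at 25 and 8 in Col DMS replicates 1 and 2, and at 0 in either mock. Replicate 2 thus held fewer such positions than replicate 1 in both genotypes. The highest single rates in the DMS libraries were 8.34% and 21.3% in chr2 and 11.4% and 14.0% in Col.

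The reactive positions were mainly adenosines. Of the 46 A/C positions at 1% or more in at least 1 DMS library, 23 were unpaired and 23 paired in the fold, out of 25 unpaired and 64 paired, and of the 22 at 1% or more in at least 2 libraries, 16 were unpaired and 6 paired. Of 21 unpaired A, 20 reached 1% in at least 1 DMS library and 15 in at least 2. Of 4 unpaired C, 3 did so in at least 1. Of 33 paired A, 19 reached 1% in at least 1 library and 5 in at least 2, and of 31 paired C, 4 and 1 did. Mean rates of the 25 unpaired A/C positions were 2.98% and 3.39% in chr2 DMS and 2.85% and 2.09% in Col DMS. Those of the 64 paired ones were 0.658% and 0.367% in chr2 DMS and 0.455% and 0.254% in Col DMS, so that unpaired exceeded paired in each of the 4 libraries. The ratio of unpaired to paired was 6.21 in chr2 (4.52 and 9.24 by replicate) and 6.97 in Col (6.26 and 8.25), and in the mocks it was 0.734 in chr2 and 0.834 in Col. Among paired A, 10 of 13 at the end of a helix reached 1% in at least 1 library and 9 of 20 inside a helix did.

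G and T positions gave the background measured the same way. Of 114, a rate of 1% or more was found at 7 and 1 in chr2 DMS and at 8 and 0 in Col DMS, against 1 in the chr2 mock and 0 in the Col mock. Their mean rate was 0.211% and 0.117% in chr2 DMS and 0.214% and 0.0795% in Col DMS, against 0.104% in the chr2 mock and 0.0847% in the Col mock. Both replicate 1 libraries therefore carried single G/T positions as high as moderately reactive A/C positions. The highest by mean was a T at position 48, with 3.29% and 0.0512% in chr2 DMS and 1.84% and 0.0408% in Col DMS. The next was a T at position 173, beside the reactive A at 172, with 3.84% and 0.0383% in chr2 DMS and 0.0176% and 0.0232% in Col DMS. The third, a G of the miRNA strand at position 69, had 1.42% and 0.0646% in chr2 DMS and 2.08% and 0.107% in Col DMS, but also 0.940% in the chr2 mock, with 0.0286% in the Col mock.

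**Figure D1:**
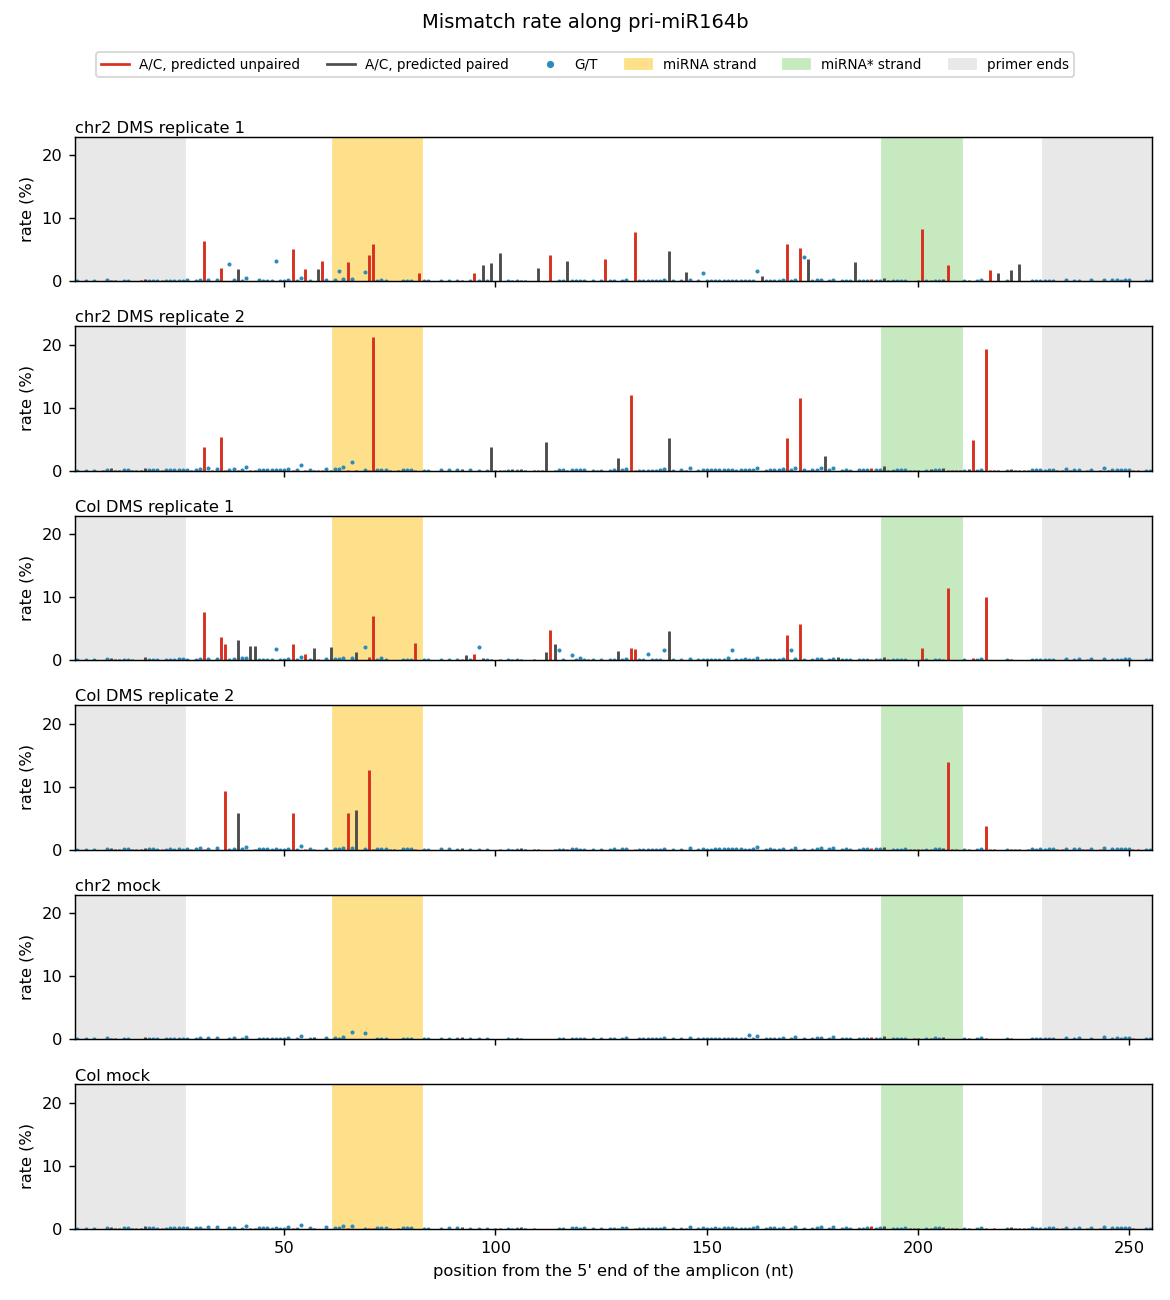
Mismatch rate (percent, vertical axes on one linear scale) at each position of pri-miR164b (horizontal axis, nt from the 5′ end) in the 6 libraries, with A/C positions as lines and G/T positions as dots. Most high lines stand in only 1 of the 2 replicates of a genotype, with 7 A/C positions at 1% or more in both for chr2 and 6 for Col. The mocks stay near 0, and Col DMS replicate 2 has no high line between the strands of the duplex.

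Among the A/C positions of the miRNA/miRNA* duplex, rates of 1% or more were found at the predicted unpaired positions and hardly elsewhere. All 7 unpaired A/C positions of the duplex (65, 70, 71, 81, 82, 201 and 207) reached 1% in at least 1 DMS library, and 1 of the 15 paired ones did, position 67. The mean rate of the 7 was 3.63% and 3.11% in chr2 DMS and 3.39% and 4.65% in Col DMS, against 0.0524% in the chr2 mock and 0.0659% in the Col mock. That of the 15 paired positions was 0.107% and 0.147% in chr2 DMS and 0.192% and 0.515% in Col DMS, against 0.107% in the chr2 mock and 0.111% in the Col mock. No other paired A or C of the duplex reached 1% in any DMS library, although the paired A at 193 had 0.110% and 0.0446% in chr2 DMS and 0.223% and 0.0233% in Col DMS, against 0.0374% in the chr2 mock and 0.0214% in the Col mock. Among the G/T controls of the duplex, the paired G at 69, given above, reached 1%, as did those at 63 and 66. Position 63 had 1.57% and 0.208% in chr2 DMS. Position 66 had 0.396% and 1.39% in chr2 DMS, against 1.21% in the chr2 mock.

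The highest position of pri-miR164b was an A at position 71, the base at position 10 of the miRNA and thus in the centre of the strand. It had 5.92% and 21.3% in chr2 DMS and 7.10% and 0.0535% in Col DMS. The mocks had 0.0602% (95% Wilson interval 0.0443 to 0.0820) in chr2 and 0.0720% (0.0569 to 0.0911) in Col. It was thus high in 3 libraries and at the mock level in Col DMS replicate 2. Its neighbour, a C at position 70, showed another order, with 4.21% and 0.0724% in chr2 DMS and 0.453% and 12.6% in Col DMS, against 0.0605% in the chr2 mock and 0.169% in the Col mock. Opposite this internal loop, the A at 201 of the miRNA* strand had 8.34% and 0.0266% in chr2 DMS and 1.91% and 0.0523% in Col DMS. Positions 70, 71 and 201 all reached 1% in the same library in chr2 DMS replicate 1 alone.

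The A-A mismatch near the 5′ end of the miRNA was reactive on both sides. Position 207 in the miRNA* strand had 2.64% and 0.0889% in chr2 DMS and 11.4% and 14.0% in Col DMS, against 0.0843% (95% Wilson interval 0.0632 to 0.112) in the chr2 mock and 0.0784% (0.0613 to 0.100) in the Col mock. Both Col libraries lay above both chr2 libraries here. Across the helix, position 65 had 3.04% and 0.0857% in chr2 DMS and 0.103% and 5.78% in Col DMS. At the 3′ end of the miRNA, the C at 81 reached 2.77% in Col DMS replicate 1 and the A at 82 reached 1.24% in chr2 DMS replicate 1, each with under 0.2% in the other 3 DMS libraries. The paired exception, the A at 67, had 0.0483% and 0.0431% in chr2 DMS and 1.32% and 6.35% in Col DMS.

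**Figure D2:**
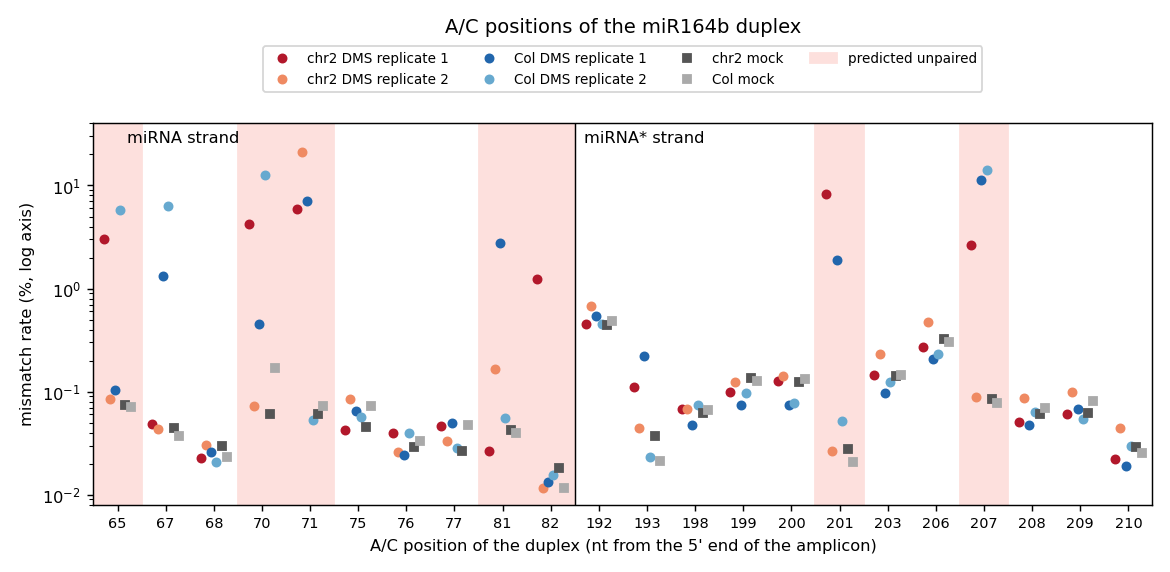
Mismatch rate (percent, log axis) of the 22 A/C positions of the miR164b duplex in each library, with predicted unpaired positions shaded. Rates of 1% or more fall on the 7 shaded positions and on position 67, and all other positions stay under 1%, with the DMS libraries of position 193 up to 0.223% and its mocks at 0.0374% in chr2 and 0.0214% in Col.

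As whole strands, the miRNA strand (10 A/C positions) had a mean rate of 1.46% and 2.18% in chr2 DMS and 1.19% and 2.50% in Col DMS, against 0.0430% in the chr2 mock and 0.0575% in the Col mock. The libraries of the genotypes overlapped. The miRNA* strand (12 positions) had 1.03% and 0.175% in chr2 DMS and 1.23% and 1.27% in Col DMS, against 0.128% in the chr2 mock and 0.129% in the Col mock. The low value of chr2 DMS replicate 2 came with both of its open adenosines, 201 and 207, at the mock level.

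Unpaired bases between the strands were called the terminal loop, although only positions 132 and 133 of the 8 A/C positions lie in the hairpin loop and the other 6 are unpaired bases elsewhere between the strands. Their mean rate was 3.53% and 3.66% in chr2 DMS and 2.44% and 0.0661% in Col DMS, against 0.0663% in the chr2 mock and 0.0733% in the Col mock. Col DMS replicate 2 was at the mock level, and the other 3 libraries were far above it. Of the 8, 7 reached 1% in at least 1 library. The exception was the C at 189, with 0.323% and 0.470% in chr2 DMS and 0.262% and 0.324% in Col DMS, where the mocks had 0.345% in chr2 and 0.374% in Col. In the hairpin loop, position 132 had 0.0260% and 12.0% in chr2 DMS and 1.87% and 0.0315% in Col DMS, and position 133 had 7.80% and 0.0735% in chr2 DMS and 1.80% and 0.0517% in Col DMS. In chr2 each of these neighbours was thus high in the replicate in which the other was low.

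Among these open bases, 2 adenosines of the 3′ arm were high in 3 of the 4 DMS libraries. Position 172 had 5.31% and 11.5% in chr2 DMS and 5.73% and 0.0220% in Col DMS, against 0.0166% (95% Wilson interval 0.00925 to 0.0297) in the chr2 mock and 0.0256% (0.0173 to 0.0377) in the Col mock. Position 169 had 5.91% and 5.22% in chr2 DMS and 3.95% and 0.0322% in Col DMS. Both were high in the same 3 libraries, with the lower rates again in Col DMS replicate 2.

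Predicted paired positions between the strands, the upper stem (33 A/C positions), had a mean rate of 0.916% and 0.600% in chr2 DMS and 0.419% and 0.0528% in Col DMS, against 0.0568% in the chr2 mock and 0.0523% in the Col mock. Both chr2 libraries lay above both Col libraries, and Col DMS replicate 2 was at the mock level. Of these 33, 13 reached 1% in at least 1 library, 4 in at least 2 and 1 in 3. The last, an A at position 141, had 4.79% and 5.13% in chr2 DMS and 4.65% and 0.0271% in Col DMS, against 0.0165% (95% Wilson interval 0.00943 to 0.0288) in the chr2 mock and 0.0331% (0.0237 to 0.0462) in the Col mock. The fold pairs it with the U at position 125 at the end of a helix, and its rates in the 3 high libraries were near those of the open A at 169. Position 99, also paired at the end of a helix, had 2.84% and 3.83% in chr2 DMS and 0.207% and 0.0291% in Col DMS.

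Outside the duplex, the 5′ flank (positions 27 to 61, 14 A/C) had a mean rate of 1.65% and 0.698% in chr2 DMS and 2.10% and 1.54% in Col DMS, against 0.0656% in the chr2 mock and 0.0438% in the Col mock. Of its 14 A/C positions 12 reached 1% in at least 1 library. The A at 31 led in chr2, with 6.36% and 3.79% in chr2 DMS and 7.64% and 0.0553% in Col DMS. The A at 36 led in Col, with 0.0474% and 0.0478% in chr2 DMS and 2.59% and 9.35% in Col DMS. The A at 52 had 5.19% and 0.0828% in chr2 DMS and 2.50% and 5.89% in Col DMS.

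The 3′ flank (211 to 229, 12 A/C positions) had a mean of 0.666% and 2.11% in chr2 DMS and 0.910% and 0.375% in Col DMS, against 0.0866% in the chr2 mock and 0.0827% in the Col mock. The genotypes overlapped, and 6 of the 12 reached 1% in at least 1 library. Its leading position was an unpaired A at 216, with 0.0770% and 19.3% in chr2 DMS and 9.99% and 3.76% in Col DMS, against 0.147% in the chr2 mock and 0.117% in the Col mock. It was the second highest position by the mean of the 4 DMS libraries.

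**Figure D3:**
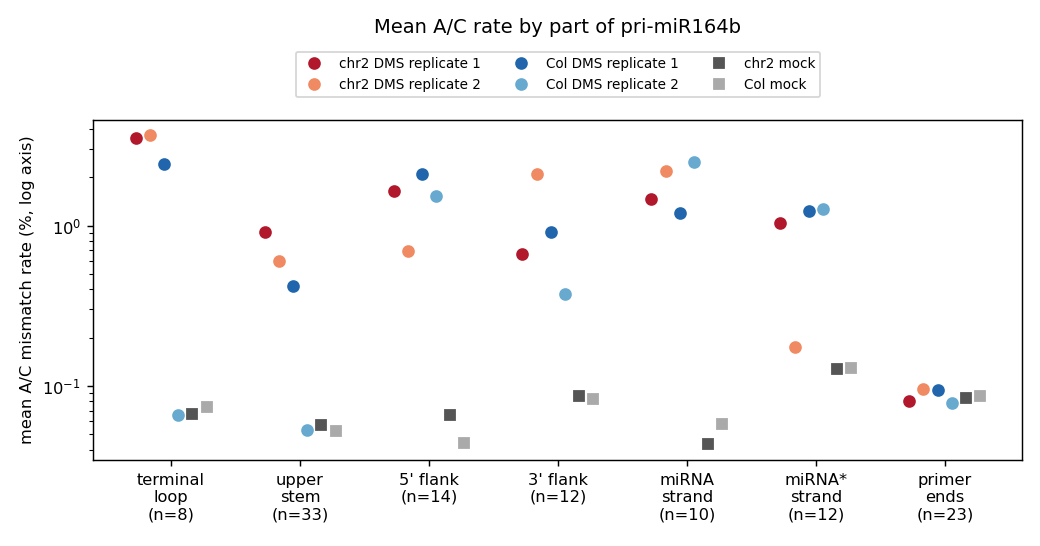
Mean A/C mismatch rate (percent, log axis) of each part of pri-miR164b in every library, with the number of A/C positions under each part. DMS libraries are circles and mocks squares. Col DMS replicate 2 lies with the mocks in the terminal loop and the upper stem, and the primer ends show no DMS signal.

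Set against the duplex as a whole (22 A/C positions), the order of the parts by mean rate was not the same in the 2 genotypes. It also differed between the replicates of each genotype. With medians over positions, averaged over the libraries of a genotype before dividing, the loop over the duplex was 21.6 in chr2 and 12.8 in Col. The Col value came from replicate 1. In Col DMS replicate 2, 0 of the 8 A/C positions of the loop reached 0.5%. By medians the 3′ flank over the duplex turned to 0.876 in chr2. The terminal loop had 3.60% ± 0.0920 in chr2 DMS and 1.25% ± 1.68 in Col DMS, and the duplex 1.16% ± 0.0994 in chr2 DMS and 1.52% ± 0.439 in Col DMS (SD, n = 2 each). The loop over the duplex was 3.11 in chr2, with 2.88 and 3.37 by replicate. In Col it was 0.823, with 2.01 in replicate 1 and 0.0361 in replicate 2. Without Col DMS replicate 2 the loop mean was thus above the duplex mean in both genotypes. By definition all 8 loop A/C positions were unpaired, whereas 15 of the 22 in the duplex were paired, so this ratio also compares unpaired with paired bases. The 7 unpaired A/C positions of the duplex had 3.63% and 3.11% in chr2 DMS and 3.39% and 4.65% in Col DMS. The loop mean exceeded theirs in chr2 DMS replicate 2 alone, at 3.66%. Upper stem over duplex was 0.654 in chr2 (0.745 and 0.552 by replicate) and 0.155 in Col (0.346 and 0.0288), below 1 in all 4 libraries. It was also below 1 in the mocks, at 0.636 in chr2 and 0.540 in Col, so that the chr2 DMS value lay close to that of its mock. By definition the upper stem held paired positions only. The 15 paired A/C positions of the duplex had 0.107% and 0.147% in chr2 DMS and 0.192% and 0.515% in Col DMS. The upper stem, at 0.916% and 0.600% in chr2 DMS and 0.419% and 0.0528% in Col DMS, was above them except in Col DMS replicate 2. The 5′ flank over the duplex was 1.01 in chr2 (1.34 and 0.642 by replicate) and 1.19 in Col (1.73 and 0.840). The 3′ flank over the duplex was 1.20 in chr2 (0.542 and 1.94) and 0.422 in Col (0.751 and 0.205). Both flanks changed sides between the replicates in at least 1 genotype, and the difference of these ratios between the genotypes was not tested.

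Replicates agreed poorly at the level of single positions. Over the 89 A/C positions, the correlation of log2(rate + 0.05%) between replicates was r = 0.168 (Spearman 0.256) in chr2 DMS and r = 0.353 (Spearman 0.346) in Col DMS. Between the mocks of the genotypes it was r = 0.928 (Spearman 0.876). These points share an amplicon, a library and its molecules, and the r is a description. Across genotypes r was 0.332 between the replicate 1 libraries, 0.0309 between the replicate 2 libraries, 0.506 between chr2 DMS replicate 2 and Col DMS replicate 1, and 0.164 between chr2 DMS replicate 1 and Col DMS replicate 2. The within-genotype values lay inside this range.

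The disagreement was of presence and absence more than of size. In chr2, 38 A/C positions reached 1% in at least 1 replicate: 7 in both, 25 in replicate 1 alone and 6 in replicate 2 alone. In Col, 27 did: 6 in both, 19 in replicate 1 alone and 2 in replicate 2 alone. Of these, 31 of 38 in chr2 and 21 of 27 in Col differed more than 5-fold between replicates, with 0.05% added to each rate. Over the 4 DMS libraries, 46 A/C positions reached 1% at least once: 24 in 1 library, 12 in 2, 10 in 3 and 0 in all 4. The 10 found in 3 libraries were 31, 35, 39, 52, 71, 141, 169, 172, 207 and 216, and the fold leaves 8 of these unpaired. Among G/T positions 12 reached 1% in 1 library, 2 in 2 and none in more.

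**Figure D4:**
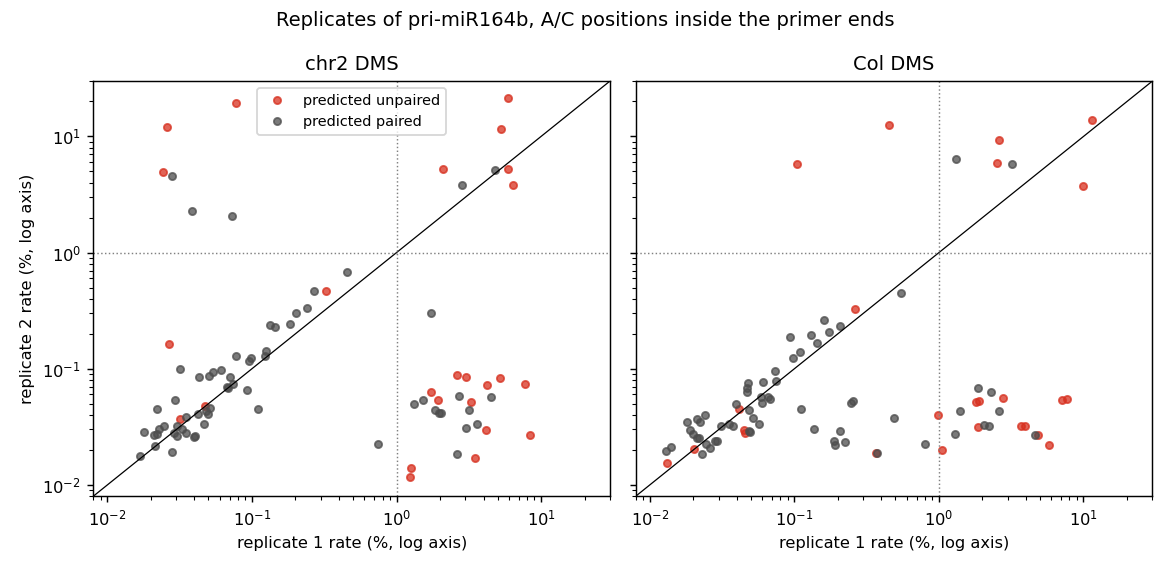
Mismatch rate (percent, log axes) of the 89 A/C positions in replicate 1 against replicate 2, for chr2 DMS and Col DMS, with dotted lines at 1% and a diagonal of equal rates. Most positions past 1% in one replicate lie at the background level in the other, along the lower right and upper left of each panel.

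**Figure D5:**
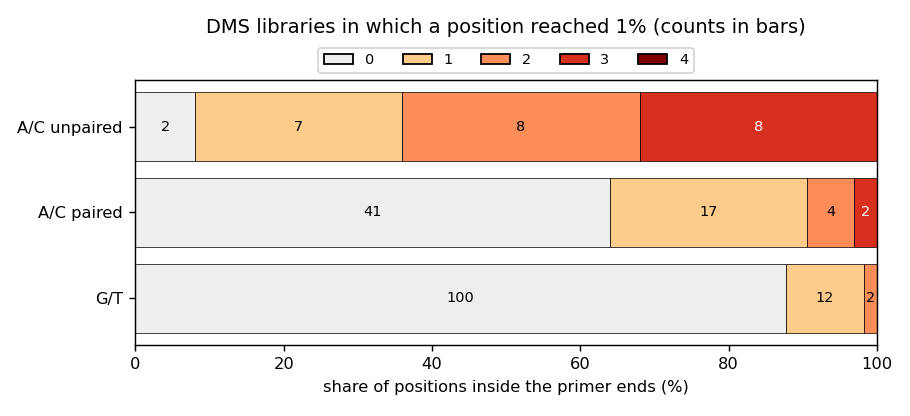
Share of positions inside the primer ends (horizontal axis, percent, counts in the bars) by the number of DMS libraries, 0 to 4, in which they reached 1%. Predicted unpaired A/C positions were most often high in several libraries, and no position of any kind was high in all 4.

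Mismatches at reactive positions were mostly to 1 base. At 55 of the 78 instances of an A/C position at 1% or more in a DMS library, a single base made up at least 95% of the mismatches, and the median share of the commonest base was 98.8%. At G/T positions it was 15 of 16. In Col DMS replicate 2 all 8 instances were of this kind. Yet the base could change from library to library. Of the 22 A/C positions high in 2 or more libraries, 10 had the same commonest base in each and 12 did not. At position 35, an A, the commonest call was T in chr2 DMS replicate 1 (99.3% of mismatches), G in chr2 DMS replicate 2 (99.8%) and C in Col DMS replicate 1 (50.0%). At position 71 it was T in chr2 DMS replicate 1 (99.5%), C in chr2 DMS replicate 2 (72.6%) and T in Col DMS replicate 1 (50.3%). At position 216 it was G wherever the rate was high, with 80.6% in chr2 DMS replicate 2 and 75.1% and 97.8% in Col DMS.

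Summed over all A positions, A-to-T calls were 66.6% and 42.0% of mismatches in chr2 DMS and 57.3% and 46.2% in Col DMS, against 41.9% in the chr2 mock and 40.6% in the Col mock. At C positions, C-to-T calls were 69.2% and 57.5% in chr2 DMS and 47.2% and 14.3% in Col DMS, against 81.0% in the chr2 mock and 82.4% in the Col mock. In Col DMS replicate 2, C-to-A calls were 85.0% of mismatches at C, and at position 70, the miRNA base with 12.6% mismatches, they were 99.8%.

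In the fit across all A/C positions of the series, no position of pri-miR164b passed. With edgeR's quasi-likelihood test and Benjamini-Hochberg adjusted p-values, 0 of its 110 tested A/C positions were above mock in chr2, against a background of 13.0% over 2597 positions, and 0 were above mock in Col, against 13.2%. At an unadjusted edgeR p under 0.05 there were 1 in chr2 and 2 in Col, against 629 and 616 of the 2597 positions of the series. The remaining pair of A/C positions, in a primer end, had under 10 mismatches. DESeq2 put 27 above mock in chr2 (background 37.8%) and 21 in Col (background 37.7%). Of 140 G/T positions, DESeq2 put 1 above mock in chr2 (background 1.69%) and 1 in Col (background 1.76%). These contrasts were known when the precursor was chosen, and the counts are a description. With 1 mock library per genotype, the spread was estimated from the DMS pairs.

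No A/C position of pri-miR164b passed between chr2 DMS and Col DMS either. EdgeR's quasi-likelihood test called 0 of 110 (background 0% of 2594), with 3 higher and 2 lower in chr2 when p was left unadjusted at 0.05. Over the 2594 positions of the series, 59 were higher and 51 lower by the same unadjusted p. DESeq2 called 13 (background 11.1%). Among 139 G/T controls, DESeq2 called 7 (background 8.30%) and edgeR 0 (background 0%), with 3 by its unadjusted p (112 of 2833 over the series). Of positions with lower rates in chr2, the smallest p-values belonged to 36, 67 and 114. Position 36, described above, had a log2 fold of -7.03 (edgeR adjusted p = 0.332), and position 67 of the miRNA strand -6.45 (edgeR adjusted p = 0.430). Position 114 had 0.0351% and 0.0385% in chr2 DMS and 2.62% and 0.0429% in Col DMS, a log2 fold of -5.19 (edgeR adjusted p = 0.721) that rests on Col DMS replicate 1 and was -0.30 without it. The 3 higher in chr2 were 99, with a log2 fold of 4.79, and positions 28 and 200 with 0.89 and 0.76 (edgeR adjusted p = 0.721 each). Positions 28 and 200 stayed near the mock level throughout, with 0.0946% and 0.116% in chr2 DMS and 0.0594% and 0.0507% in Col DMS at position 28. At position 99 both chr2 libraries lay above both Col libraries. The sizes of these folds depended on single Col libraries: position 99 had 6.76 without Col DMS replicate 1 and 3.99 without replicate 2, position 36 had -7.69 and -5.78, and position 67 had -7.19 and -4.86, while position 114 had -6.17 without replicate 2.

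Averaged over the precursor, the genotypes did not pass the test. The scaled mean A/C rate was 1.29% and 1.20% in chr2 DMS, against 1.13% and 0.801% in Col DMS. Its ratio was 1.31, with a 95% interval of 0.815 to 2.11 (limma adjusted p = 0.572 over 19 amplicons). Both chr2 libraries lay above both Col libraries, for which the two-sided exact permutation p was 0.33, the smallest that 2 libraries against 2 allow. Without Col DMS replicate 2 the ratio was 1.11, and without Col DMS replicate 1 it was 1.56.

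Among the other 15 pri-miRNAs of the series, those most like pri-miR164b in their mean unpaired and paired rates over the 4 DMS libraries (8 values, Euclidean distance on log2 of the rate plus 0.05%) were pri-miR319b (distance 1.46), pri-miR159a (1.95) and pri-miR166b (2.20). They differed from it in how often a position repeated. Positions at 1% or more in all 4 DMS libraries numbered 0 of 46 ever high in pri-miR164b, against 9 of 62 in pri-miR319b, 33 of 60 in pri-miR159a and 12 of 78 in pri-miR166b. A count of 0 was not particular to pri-miR164b. It was also 0 of 52 in pri-miR393b, 0 of 23 in pri-miR390a, 0 of 18 in pri-miR319a, 0 of 12 in pri-miR165a and 0 of 33 in pri-miR160c. Replicate r was 0.168 in chr2 and 0.353 in Col for pri-miR164b, against 0.564 and 0.413 for pri-miR319b, 0.859 and 0.797 for pri-miR159a and 0.416 and 0.422 for pri-miR166b. By this r, pri-miR164b ranked 13 of 16 pri-miRNAs in chr2 and 8 of 16 in Col. The median share of the commonest wrong base was 98.8% in pri-miR164b, against 98.9% in pri-miR319b, 77.1% in pri-miR159a and 99.3% in pri-miR166b, and in the MYC2 mRNA it was 60.9%. These differences between amplicons were not tested.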

How the data were processed

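The 6 libraries held leaf nuclear RNA and were read out by DMS mutational profiling: per the labels' protocols, leaves were treated with 1% DMS or water, RNA was reverse transcribed from gene-specific primers with TGIRT-III, and the PCR products were pooled and fragmented, so depth does not measure RNA abundance. The deposited values are raw counts: per the file headers, each row gives how many reads called A, C, G or T at 1 amplicon position. Tools named in the submitters' processing notes are SAMtools 1.5, Picard, BWA and cutadapt. What each did, and the build, is not given in the sources used here. The gene name came from a RefSeq table (TAIR10.1).

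Coverage was the sum of the 4 calls. Positions entered a fit with every library covered at least 100 times, at most 5% mismatches in both mocks and at least 10 mismatches. No pri-miR164b position exceeded the mock limit. EdgeR 4.0.16 (quasi-likelihood, R 4.3.3) was run on mismatch counts of all A/C or all G/T positions, with log coverage as offset and, between genotypes, a size factor per library (median ratio of rates, 0.962 to 1.01). Limma 3.58.1 tested mean rates of 19 amplicons. Folds came from ViennaRNA 2.7.2. The fitting code was tested on simulated data. Results were recomputed with DESeq2 1.42.0, with limma, with other filters, size factors, primer ends and folds, with the replicate number as block, and without each DMS library in turn. The replicate numbers were not taken to pair the libraries.

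No mature sequence is in the reference tables, so the miRNA strand was placed by its known position, a choice made after the files were seen. Without one, the plan for the regions allowed only predicted paired and unpaired positions. The precursor, its parts and the 1% threshold were chosen with results of these data known. Named positions were the 10 A/C with the highest mean over the DMS libraries, the 3 smallest p in each direction, the highest A/C of each part and genotype, and the 3 highest G/T. The other open duplex and hairpin positions, 35, 39, 63, 66, 189 and 193 were named after their values were seen. Python 3.11.15 with SciPy 1.17.1 was used.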

Additional observations from a re-analysis of the deposited data

Results flagged for a closer look

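At 3 of the named positions, DMS minus mock had one sign in both chr2 libraries and the opposite sign in both Col libraries. All 3 had been named for a small p between the genotypes in these same DMS libraries, which favours such a split. The difference of the DMS response was not tested. The mean response in chr2 minus that in Col was 0.0302 percentage points at position 28 in the 5′ flank and 0.0636 at position 200 in the miRNA* strand, where no library exceeded 0.143%. At position 114 in the upper stem it was -1.3106 percentage points, and of the Col libraries replicate 1 had 2.62% there and replicate 2 had 0.0429%.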

How the results depend on the processing

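With DESeq2 in place of edgeR, A/C positions differing between chr2 DMS and Col DMS numbered 288 (13 in pri-miR164b), those above mock 982 in chr2 (27) and 978 in Col (21), and the G/T controls 235 between genotypes (7), 48 above mock in chr2 (1) and 50 in Col (1); positions 99, 36, 67 and 114 then had DESeq2 adjusted p of 0.00022, 1.35e-14, 7.48e-10 and 0.0268. Leaving out any 1 DMS library brought the A/C count above mock over the series to 0 in chr2 (0 to 0) and in Col (0 to 0). Terminal loop over duplex was 2.15 in chr2 with the centroid fold and 21.6 with medians over positions. In Col it was 12.8 with medians, a value that came from replicate 1, and 0.0361 to 2.01 leaving out 1 replicate. Upper stem over duplex with medians was 0.414 in chr2 and 0.861 in Col. The 5′ flank over duplex in chr2 was 0.943 pooled over reads, 5.42 with medians, 0.952 with primer ends of 20 nt and 0.642 to 1.34 leaving out 1 replicate, and in Col 14.9 with medians and 0.840 to 1.73 leaving out 1. The 3′ flank over duplex in chr2 was 0.876 with medians and 0.542 to 1.94 leaving out 1. Unpaired over paired was 22.5 in chr2 with medians, and in Col 5.55 with the centroid fold and 17.8 with medians. The cause of these shifts was not tested. The mean-rate ratio kept its direction and stayed short of the threshold in all alternatives run, from 1.11 to 1.56. With the replicate block, 0 A/C positions differed between the genotypes and the mean-rate ratio was 1.31 (limma adjusted p = 0.859). Same-numbered libraries deviated together with a correlation of 0.0247 over 2645 A/C positions and -0.184 over the 89 of pri-miR164b, so the numbers were not taken as pairs. Of the other comparisons, 205 were counted as unchanged, by a rule that differed between results. Mean-rate ratios had to keep their direction and side of the threshold. Region ratios had to stay on the same side of 1 and within the SD of the replicates. That SD was wide in Col, where loop over duplex at 0.0361 still counted as unchanged. Counts and r were allowed a margin, and many of the counts were 0 under both settings. Thresholds of 0.5% and 2%, chosen after seeing the data, moved 5 of the small G/T counts. Coverage kept the counting error of reads small, but the counts do not show how many RNA molecules the reads came from. Having 2 libraries per genotype limited every test.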
